A study of Homo sapiens with 48 samples.

Results

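THP-1 is a human line of monocytic leukemia cells. RNA of THP-1 cells kept for 12 h with lipopolysaccharide (LPS) was compared directly with RNA of THP-1 cells kept for 12 h with mercuric chloride, in 3 libraries each. These are 6 of the 48 libraries of a series on 12 chemicals, chosen by the treatment that their labels name. Both agents were dosed at CV90, which denotes a concentration at which 90% of cells stay viable, and no concentration is given in the sources used. The reference for each treatment alone was 6 libraries of cells with the vehicle dimethyl sulfoxide (DMSO), 3 in vehicle series 1 and 3 in vehicle series 2. The titles give 0.1, 0.2 and 0.3% DMSO in series 1 and 0.4, 0.5 and 0.6% in series 2, where the protocol states 0.1%. The labels do not tie a vehicle series to a treatment. All groups are the same leukemia line, which stands in for primary monocytes only in part. Whether the 3 libraries per treatment come from separate cultures is not labelled, and p-values therefore rest on a spread that may be technical.

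LPS is the outer membrane glycolipid of Gram-negative bacteria. It is sensed by TLR4 with CD14 and LY96 (MD-2), and signals through MYD88 and TICAM1 to the transcription factors NF-kB, AP-1 and IRF3, which drive cytokine, chemokine and interferon genes. Mercuric chloride binds protein thiols, and mercury and other thiol-reactive metals are known to activate the metal sensor MTF1, the oxidant sensor NRF2, the heat shock factor HSF1 and stress kinases that feed into AP-1. AP-1 is thus known from both routes. The comparison asks which inflammatory genes rise with both and which rise with the bacterial product and not with the toxic metal.

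The scaling matters, because the mercuric chloride libraries are skewed. The 10 most abundant genes held 5.81% of counts on average in LPS libraries, 12.0% in mercuric chloride libraries and 5.64 and 5.66% in the vehicle series. The mercuric chloride libraries were also the shallowest, since LPS libraries held 10453745 ± 858441 counts and mercuric chloride libraries 6414418 ± 507650 (SD, n = 3 each). Levels are counts-per-million (CPM) values of the library total scaled by the trimmed mean of M-values (TMM), with factors of 1.01 with LPS, 0.752 to 0.772 with mercuric chloride and 0.978 to 1.03 with vehicle. On this scale the median log2 difference between LPS and mercuric chloride over all tested genes was -0.01. TMM places the bulk of log ratios near 0 by design, so this value is no check of the scale. With library totals alone the median was 0.36, so LPS levels stand higher against mercuric chloride by about that shift. Library totals over the series ran from 5952817 to 11496950 counts.

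Monocyte markers were present in all groups, with a summed level over 20 markers of 4865 to 5774 CPM of unscaled totals with LPS, 3746 to 4544 CPM with mercuric chloride and 4772 to 6709 CPM with vehicle, and FCN1 at 0 throughout. Unscaled totals place mercuric chloride lower than the TMM scale does. Of the 19 tested markers, 5 were raised and 2 lowered with LPS, while 1 was raised and 10 were lowered with mercuric chloride. In such bulk RNA, fewer cells of a type and less RNA per cell cannot be told apart. Genes near silence behaved differently under the metal. Of 2162 tested genes with a vehicle mean under 1 CPM, 2.87% were called raised with LPS and 42.1% with mercuric chloride. Of the other tested genes, 4.84% were raised with LPS and 18.5% with mercuric chloride. Summed erythroid markers ranged over 0 to 0.806 CPM with LPS, 16.1 to 22.9 CPM with mercuric chloride, mostly HBA2, and 0.420 to 0.850 CPM with vehicle, while HBG1 and HBG2 were at 0 in all of these groups. The part of this broad rise of near-silent genes in any single result below was not tested.

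Over all genes the direct comparison was broad. With edgeR's quasi-likelihood test at an adjusted p under 0.05, 4405 of 15642 tested genes (28.2%) were higher with LPS than with mercuric chloride and 4605 (29.4%) were lower. At least 2-fold differences held for 1604 genes (10.3%) that were higher and 2616 (16.7%) that were lower. All LPS libraries stood above all mercuric chloride libraries for 4780 tested genes (30.6%), and below them for 5058 (32.3%). A lack of overlap between the treatments in a gene named below is therefore common. Of the called genes, 48.9% were higher with LPS on the TMM scale, 71.1% with library totals alone and 66.7% with totals that leave out the 10 most abundant genes. Against both vehicle series, LPS raised 714 genes (4.56%) and lowered 413 (2.64%), whereas mercuric chloride raised 3404 (21.8%) and lowered 3145 (20.1%).

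The inflammatory genes were followed in 10 lists that hold 347 symbols, of which 288 passed the filter on low counts. Each tested gene was put in a class by 3 calls at an adjusted p under 0.05. A gene of the shared class was raised with both treatments over both vehicle series. A gene of the LPS class was raised with LPS, was not called raised with mercuric chloride, and was higher with LPS in the direct comparison, and the mercuric chloride class is its mirror image. A missing call is not a measured absence of change. A gene near silence elsewhere can pass the filter on low counts through a single treatment, so counts per class are descriptions. Both treatments are set against the same vehicle libraries, so the classes share that reference.

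The shared class held 50 of the 288 genes (17.4%), against 214 of all 15642 tested genes (1.37%). The LPS class held 64 (22.2%), against 3.04% of all tested genes. The mercuric chloride class held 52 (18.1%), which is near the 19.2% of all tested genes. The lists were chosen with earlier results of these data known. An excess over all tested genes may thus be built in, and these shares are descriptions only. A further 111 genes were raised with neither treatment and 11 were raised with one but met no class. Of the 64 genes of the LPS class, 15 were also lowered by mercuric chloride (5.21% of the 288). Over all tested genes 168 (1.07%) were raised with LPS and lowered with mercuric chloride, beside 475 in the LPS class. Set against the size of the LPS class, such genes were not more frequent among the inflammatory genes than over all tested genes. In the direct comparison 123 of the 288 genes (42.7%) were higher with LPS and 79 (27.4%) were lower, with a median log2 difference of 0.29. The median log2 change over vehicle was 0.78 with LPS and 0.49 with mercuric chloride, or 0.50 when members without counts are put at their bound, and all 3 medians over all tested genes were between -0.02 and -0.01.

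**Figure D1:**
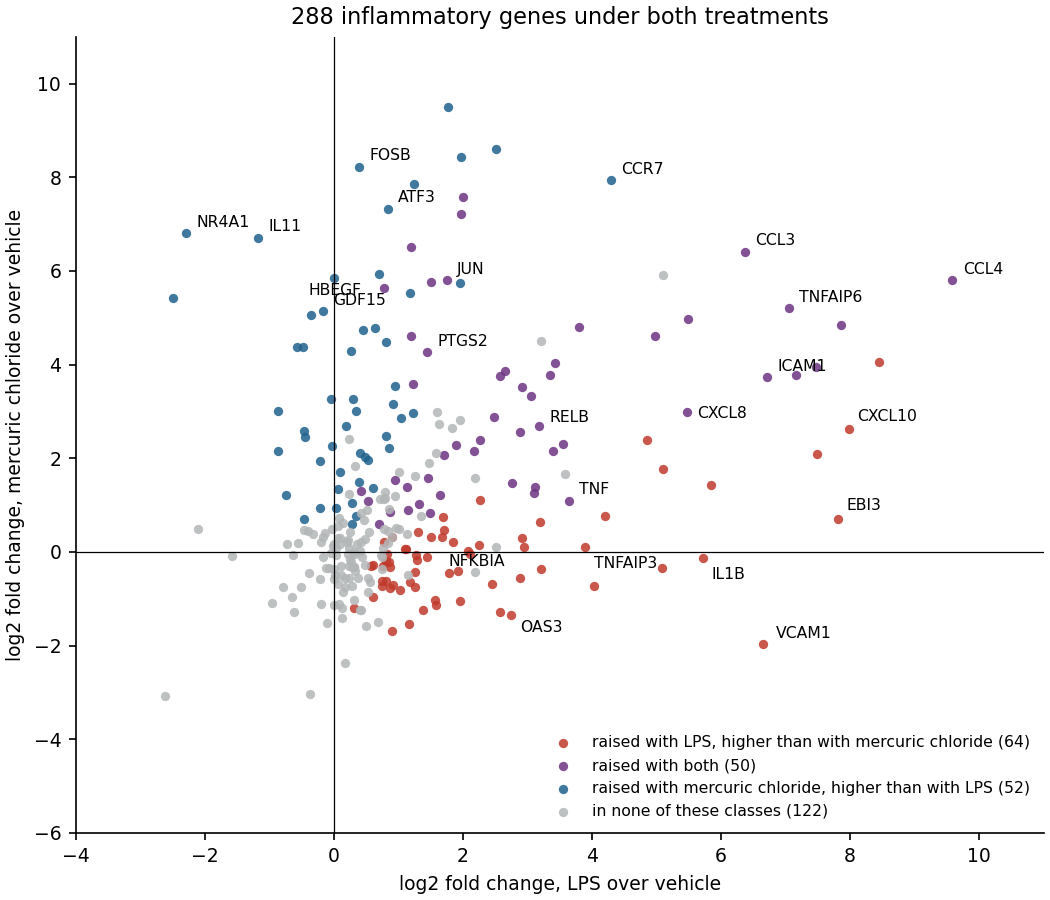
Each of the 288 tested inflammatory genes by its log2 fold change over vehicle with LPS (horizontal axis) and with mercuric chloride (vertical axis), coloured by class. Points low on the right, among them IL1B and TNFAIP3, were called raised with LPS alone and points high along the vertical axis, among them FOSB and ATF3, with mercuric chloride alone; both axes share the 6 vehicle libraries, and points with almost no vehicle counts (VCAM1, CCL4, CXCL10, CCR7) are fitted values that depend on the prior count.

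Of 23 tested chemokines, 9 were in the shared class, 7 in the LPS class and 1 in the mercuric chloride class. These classes held 1.37%, 3.04% and 19.2% of all tested genes. CCL3, which draws monocytes and lymphocytes, was at 53.3, 46.9 and 35.3 CPM with LPS and 49, 45.1 and 45.2 CPM with mercuric chloride, against 0.204 to 1.07 CPM (median 0.514) with vehicle. The LPS and mercuric chloride libraries overlapped, and all 6 stood far above vehicle. The rise was 6.37 (log2, edgeR adjusted p = 1.16e-16) with LPS and 6.41 (edgeR adjusted p = 1.69e-17) with mercuric chloride. The direct difference was -0.04 ± 0.28 (log2 ± SE; edgeR adjusted p = 0.913), with a 95% interval from -0.60 to 0.52, and its sign turned with library totals alone (0.37).

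CXCL8, the neutrophil attractant interleukin 8, also rose with both but not equally. It was at 115, 133 and 116 CPM with LPS and 20.3, 22.7 and 22.3 CPM with mercuric chloride, against 0.822 to 7.55 CPM (median 3.17) with vehicle. No LPS library overlapped with mercuric chloride, and no mercuric chloride library overlapped with vehicle. The direct difference was 2.48 ± 0.23 (log2 ± SE; edgeR adjusted p = 8.74e-13).

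CCL4, a relative of CCL3, parted from CCL3. It was at 41.2, 39.2 and 27.2 CPM with LPS and 3.07, 3.05 and 1.65 CPM with mercuric chloride, with no overlap, while vehicle libraries held 4 counts of it in all. The direct difference was 3.79 ± 0.53 (log2 ± SE; edgeR adjusted p = 3.56e-07), although DESeq2 gave 3.72 with an adjusted p of 0.233. CCL5, CCL3L1, CCL3L3, CCL4L1, CCL4L2 and CXCL14 were the other chemokines raised with both. With DESeq2, CCL4, CCL4L1 and CCL4L2 left the shared class. CCL3 and CCL4 have near-identical copies among them, so the split of reads within each set is uncertain.

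TNF, the cytokine at the head of the inflammatory cascade, was at 94, 89.3 and 75.3 CPM with LPS and 15.3, 15 and 14 CPM with mercuric chloride, against 4.38 to 10.2 CPM (median 6.53) with vehicle. Every LPS library stood above every mercuric chloride library, and these above vehicle. TNF rose by 3.64 (log2, edgeR adjusted p = 2.60e-17) with LPS and by 1.09 (edgeR adjusted p = 0.00222) with mercuric chloride. The smaller rise was not called with library totals alone or with totals that leave out the 10 most abundant genes. TNF lies on several rows of the files that were summed, so its level is uncertain. IL32, an inducer of TNF, was at 24.1, 26.5 and 17.5 CPM with LPS and 2.87, 2.83 and 2.68 CPM with mercuric chloride, while vehicle libraries held 5 counts of it in all. Its direct difference of 3.02 ± 0.59 (log2 ± SE; edgeR adjusted p = 3.65e-05) was not called by DESeq2 (adjusted p = 0.105).

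Among the effector, adhesion and matrix genes, 13 of 48 were in the shared class, 15 in the LPS class and 5 in the mercuric chloride class. The last share (10.4%) is below the 19.2% of all tested genes. The shared class held 1.37% and the LPS class 3.04% of all tested genes. The mercuric chloride count was 8 to 10 without LPS replicate 3 or any single vehicle library, and the shared count was 21 against vehicle series 2 alone. ICAM1, the endothelial and leukocyte adhesion molecule that binds LFA-1, was at 46.1, 33.9 and 30.8 CPM with LPS and 4.41, 6.32 and 3.3 CPM with mercuric chloride, against 0 to 0.647 CPM (median 0.362) with vehicle. SOD2, the mitochondrial superoxide dismutase and an NF-kB target, was at 399.7, 379 and 396 CPM with LPS and 128, 97 and 104 CPM with mercuric chloride, against 41.1 to 48.3 CPM (median 46.7) with vehicle. For both genes the 3 groups were fully apart, in the order LPS, mercuric chloride, vehicle. LPS exceeded mercuric chloride by 2.98 ± 0.44 for ICAM1 (log2 ± SE; edgeR adjusted p = 1.76e-07) and by 1.83 ± 0.13 for SOD2 (edgeR adjusted p = 6.89e-17).

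CD83, a maturation marker of dendritic cells and activated monocytes, rose with both treatments. It was at 57.7, 58.4 and 51.7 CPM with LPS and 69.7, 64.1 and 70.4 CPM with mercuric chloride, against 4.5 to 7.75 CPM (median 7.55) with vehicle. Every mercuric chloride library stood above every LPS library. The direct difference of -0.28 ± 0.24 (log2 ± SE) was not called (edgeR adjusted p = 0.327, 95% interval -0.78 to 0.21). TNFAIP6, a hyaluronan-binding protein of inflamed tissue, averaged 21.8 ± 2.11 CPM with LPS and 6.07 ± 1.74 CPM with mercuric chloride, against 0.205 ± 0.217 CPM with vehicle. DESeq2 did not call the TNFAIP6 difference between the treatments (adjusted p = 0.184). SLAMF7, a receptor of activated macrophages and lymphocytes, averaged 12.9 ± 1.07 CPM with LPS and 8.99 ± 1.46 CPM with mercuric chloride, against 0.276 ± 0.0792 CPM with vehicle.

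IL7R, the receptor subunit for interleukin 7, was at 32.1, 37.5 and 35.5 CPM with LPS and 42.7, 48.4 and 51 CPM with mercuric chloride, against 2.23 to 4.26 CPM (median 3.42) with vehicle. IL7R is also a T cell marker and the only one of 6 tested T and NK cell markers raised with either treatment. With both treatments it made up most of the summed T and NK cell markers. That sum was 45.1 to 52.3 CPM of unscaled totals over LPS libraries and 46.6 to 50.2 CPM over mercuric chloride libraries. Over vehicle libraries the sum was 13.3 to 18.5 CPM, most of it from other markers. The defining T cell markers CD3D and CD3E were at 0 with both treatments, and CD3E also with vehicle. Other members differed. CD7, CD8B and LCK were at 0 with LPS and vehicle but had counts with mercuric chloride. CD2 and ZAP70 were at 0 with mercuric chloride and vehicle but had counts with LPS.

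Not every gene raised with both was led by LPS. Of the 50, 17 were higher with LPS, 17 were lower with LPS and 16 were not called between the treatments. PTGS2, the inducible cyclooxygenase COX-2 of prostaglandin synthesis, was at 5.94, 6.58 and 5.07 CPM with LPS and 45, 45.1 and 34.7 CPM with mercuric chloride, against 1.3 to 2.75 CPM (median 2.44) with vehicle. The groups did not overlap, with mercuric chloride far above LPS and LPS just above vehicle. Its direct difference was -2.82 ± 0.35 (log2 ± SE; edgeR adjusted p = 3.41e-09). HBEGF, a growth factor that binds the EGF receptor, was at 16.2, 12.8 and 14.7 CPM with LPS and 475, 420.4 and 367 CPM with mercuric chloride, against 7.34 to 10.2 CPM (median 8.51) with vehicle. Its direct difference was -4.85 ± 0.17 (log2 ± SE; edgeR adjusted p = 8.71e-28), so the rise with LPS was the smaller by far.

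The matrix protein THBS1, the urokinase receptor PLAUR and the interferon-inducible GTPase GBP2 also stood lower with LPS. GBP2 averaged 23.8 ± 1.92 CPM with LPS and 55.2 ± 8.67 CPM with mercuric chloride, against 3.78 ± 0.79 CPM with vehicle. THBS1 averaged 1.79 ± 0.619 CPM with LPS and 68.1 ± 7.65 CPM with mercuric chloride, against 0.452 ± 0.209 CPM with vehicle. The small rises with LPS in this set are the less firm side of the call. PTGS2, DUSP8, MAFF and PIM3 moved to the mercuric chloride class when untreated libraries took the place of vehicle. PTGS2 also left the shared class without LPS replicate 2, vehicle series 1 replicate 2 or vehicle series 2 replicate 2, and HBEGF without LPS replicate 1 or vehicle series 2 replicate 1. THBS1 did so without LPS replicate 3, any library of vehicle series 1, or replicate 1 or 3 of vehicle series 2. DUSP8, MAFF and GBP1 also left it when single LPS or vehicle libraries were left out.

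**Figure D2:**
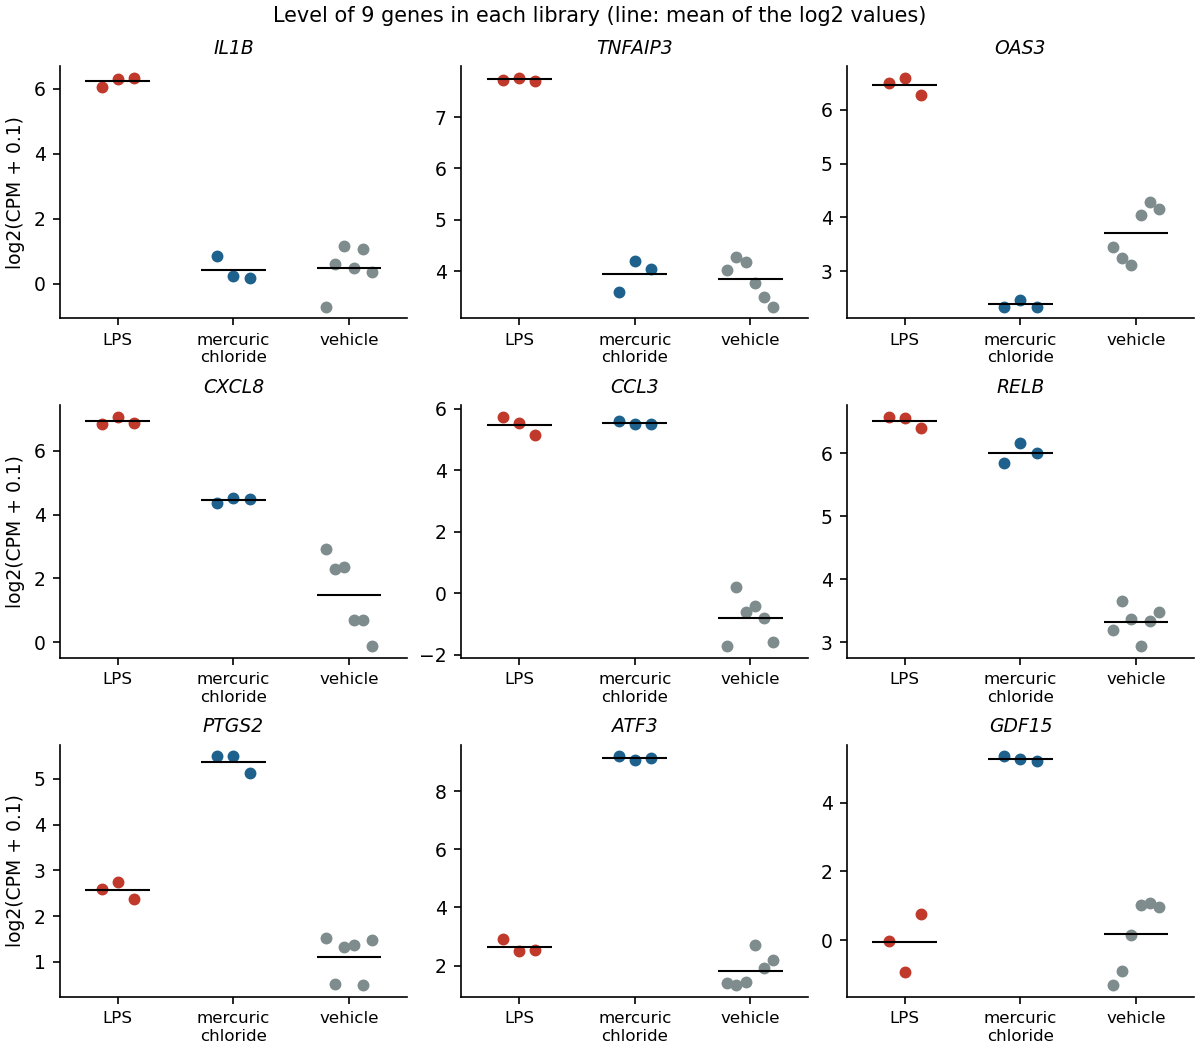
Level of 9 genes as log2(CPM + 0.1) in each of 3 LPS, 3 mercuric chloride and 6 vehicle libraries. Each point is a library, the line is the mean of the log2 values, and each panel has its own vertical scale. IL1B, TNFAIP3 and OAS3 were high with LPS alone, CXCL8, CCL3 and RELB with both, PTGS2 mainly with mercuric chloride, and ATF3 and GDF15 with mercuric chloride alone.

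The LPS class held IL1B, EBI3 and IL1RN of the secreted cytokines. IL1B, the pyrogenic interleukin 1 beta, was at 66.6, 79.7 and 81.1 CPM with LPS and 1.72, 1.09 and 1.03 CPM with mercuric chloride, against 0.51 to 2.12 CPM (median 1.36) with vehicle. The mercuric chloride libraries lay within the vehicle range, and the direct difference was 5.86 ± 0.37 (log2 ± SE; edgeR adjusted p = 4.47e-18). EBI3, a subunit of interleukins 27 and 35, was at 59.8, 62.2 and 51.5 CPM with LPS and 0.766, 0.218 and 0.206 CPM with mercuric chloride, against 0 to 0.622 CPM (median 0.21) with vehicle. Mercuric chloride again overlapped with vehicle and LPS stood far above both. Its direct difference was 7.10 ± 0.62 (log2 ± SE; edgeR adjusted p = 1.43e-13). IL1RN, the natural antagonist of interleukin 1, averaged 91.2 ± 6.59 CPM with LPS and 28.5 ± 5.34 CPM with mercuric chloride, against 38.5 ± 6.4 CPM with vehicle.

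The 7 chemokines of the LPS class were CCL2, CCL19, CCL20, CXCL1, CXCL2, CXCL10 and CXCL13. CXCL1, which attracts neutrophils through CXCR2, was at 46.4, 34.6 and 36.1 CPM with LPS and 0.575, 1.74 and 0.413 CPM with mercuric chloride, against 0.71 to 1.95 CPM (median 1.07) with vehicle, and differed by 5.43 ± 0.52 (log2 ± SE; edgeR adjusted p = 2.49e-12). CXCL10, an interferon-inducible T cell attractant, had 106 counts over the LPS libraries and 1 over the mercuric chloride libraries, a ratio of 49.0 with a counting interval from 8.6 to 1953. Vehicle libraries held none, so LPS was at least 64.8-fold higher at a floor of 3 counts over the group. CCL19, which guides cells to lymph nodes through CCR7, had 146 counts over the LPS libraries, 3 over the mercuric chloride libraries and none with vehicle, so LPS was at least 89.2-fold higher than vehicle.

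The membership of these sparse chemokines is less firm than that of CXCL1. CXCL10, CXCL13 and CCL19 passed the filter on low counts through the LPS libraries, and 15 of the 38 listed chemokines were not tested. The chemokine counts are therefore a description only. DESeq2 placed CXCL10, CXCL13 and CCL19 outside the LPS class, and CCL20 left it without vehicle series 1 replicate 3. CCL2, the main monocyte attractant, averaged 9.5 ± 1.63 CPM with LPS and 1.68 ± 0.53 CPM with mercuric chloride, against 0.445 ± 0.412 CPM with vehicle, and its mercuric chloride libraries lay above every vehicle library although no rise was called (edgeR adjusted p = 0.215). Against vehicle series 1 alone that rise was called. Members without enough counts to be tested included IL6, with 0 counts over the LPS libraries, 1 with mercuric chloride and 0 with vehicle, IFNB1, with none in any of them, and CXCL3, with 58 counts with LPS, 4 with mercuric chloride and 3 with vehicle. The reverse order held among the 59 untested members for the matrix protease MMP10, with 0 counts with LPS, 27 with mercuric chloride and 0 with vehicle, the cytokine IL19, with 0, 29 and 1 counts in the same order of groups, and the platelet chemokine PPBP, with 0, 15 and 0.

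NF-kB is held in the cytoplasm by inhibitors of the IkB family, and it induces several of its own inhibitors. Of 26 tested genes of NF-kB subunits and feedback, 6 were in the shared class, 10 in the LPS class and 1 in the mercuric chloride class. These classes held 1.37%, 3.04% and 19.2% of all tested genes. The shared genes were NFKB2, RELB, NFKBIB, NFKBIZ, BCL3 and CYLD. The LPS class held NFKBIA, NFKBIE, TNFAIP3, TNIP1, BIRC3, NFKB1, REL, TRAF1, TRAF3 and IKBKE.

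NFKBIA, which encodes the inhibitor IkB alpha, was at 979, 979.8 and 960.2 CPM with LPS and 111, 133 and 160.2 CPM with mercuric chloride, against 115 to 139 CPM (median 126) with vehicle. TNFAIP3, which encodes the ubiquitin-editing inhibitor A20, was at 212, 218 and 209 CPM with LPS and 11.9, 18.3 and 16.3 CPM with mercuric chloride, against 9.74 to 19.2 CPM (median 14.9) with vehicle. For both genes the mercuric chloride libraries overlapped with vehicle and no LPS library did. LPS exceeded mercuric chloride by 2.85 ± 0.10 for NFKBIA (log2 ± SE; edgeR adjusted p = 1.06e-28) and by 3.79 ± 0.15 for TNFAIP3 (edgeR adjusted p = 7.03e-26). Against vehicle series 2 alone, the TNFAIP3 change of 0.42 with mercuric chloride was called raised, and against series 1 it was -0.20.

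RELB, the NF-kB subunit of the noncanonical pathway, was at 95.4, 94.4 and 84 CPM with LPS and 57.1, 71.7 and 64.4 CPM with mercuric chloride, against 7.55 to 12.4 CPM (median 10.1) with vehicle. It rose by 3.18 (log2, edgeR adjusted p = 6.24e-19) with LPS and by 2.68 (edgeR adjusted p = 6.30e-17) with mercuric chloride, and the direct difference was 0.50 ± 0.16 (log2 ± SE; edgeR adjusted p = 0.00596). RELB in mercuric chloride libraries lay below LPS and far above vehicle. NFKBIZ, a nuclear IkB protein that assists secondary response genes, averaged 59.5 ± 4.88 CPM with LPS and 47.5 ± 7.7 CPM with mercuric chloride, against 8.06 ± 1.7 CPM with vehicle, and was not called between the treatments. NFKB1, which encodes p105 and p50, averaged 164 ± 6.79 CPM with LPS and 25.2 ± 3.59 CPM with mercuric chloride, against 55.6 ± 8.64 CPM with vehicle, and thus rose with LPS and fell with mercuric chloride (log2 -1.13, edgeR adjusted p = 4.30e-09).

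BIRC3, the ubiquitin ligase cIAP2, averaged 14.8 ± 2.92 CPM with LPS and 0.526 ± 0.486 CPM with mercuric chloride, against 0.9004 ± 0.603 CPM with vehicle. IKBKE, an inducible kinase of the interferon pathway, rose with LPS and fell with mercuric chloride. Thus 2 of the LPS class in this list went in opposite directions. TRAF1, an adaptor of TNF receptors, differed by 1.16 ± 0.44 (log2 ± SE; edgeR adjusted p = 0.0216), a call that was lost without LPS replicate 2 (1.07, adjusted p = 0.0614) and without mercuric chloride replicate 1 (0.84, adjusted p = 0.138). With library totals alone NFKB2 and NFKBIB were no longer called raised with mercuric chloride, and they then joined the LPS class. NFKBIB also left the shared class with totals that leave out the 10 most abundant genes, and without LPS replicate 1 or mercuric chloride replicate 2. TRAF3 moved from the LPS class to the shared class with DESeq2, with relative log expression scaling and in a fit of 12 libraries. It did so too with a minimum of 5 CPM in 3 libraries and against vehicle series 1 alone.

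**Figure D3:**
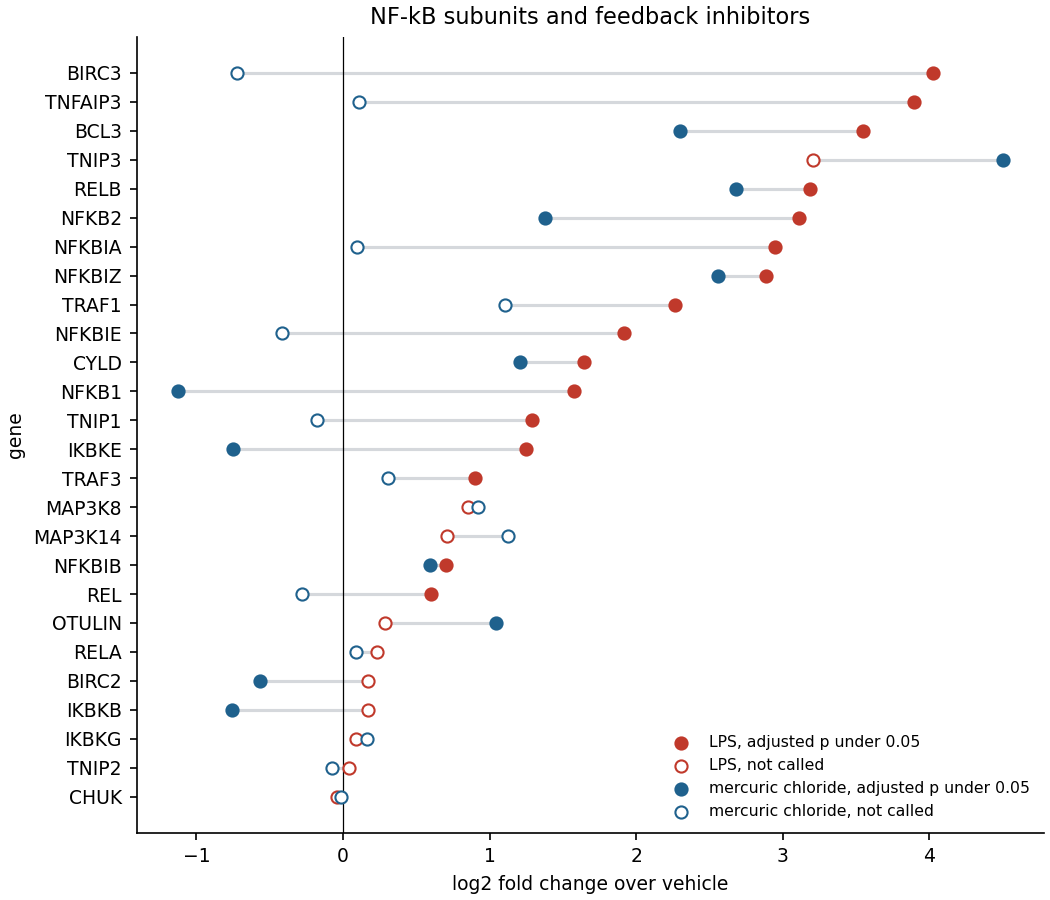
Log2 fold change over vehicle of the 26 tested NF-kB subunits and feedback genes with LPS (red) and mercuric chloride (blue), filled where the adjusted p was under 0.05. BIRC3, TNFAIP3 and NFKBIA show the widest gaps with filled LPS points only, whereas BCL3, RELB, NFKB2 and NFKBIZ have both points filled.

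The promoters of these genes were searched for short motifs in RefSeq sequence (GRCh38.p14), from 250 bases before to 50 after each start, on both strands. The kappa B motif GGNNNTTCC was in 14 of 36 promoters of the shared class (38.9%), 22 of 51 of the LPS class (43.1%) and 8 of 38 of the mercuric chloride class (21.1%), against 20.1% of 27305 promoters. A promoter was found for the number of genes given and not for every member. Motif matches are descriptions of letters in a window and do not show binding. The shares were set against all promoters and not against the other tested members of the lists. A tie to a class thus cannot be told apart from membership of a list. The stretches below run from 160 bases before the start to the last base before it, for a gene of the LPS class (TNFAIP3, chr6:137867099-137867258, plus strand; NFKBIA, chr14:35404750-35404909, minus strand) and of the shared class (CXCL8, chr4:73740409-73740568, plus strand), with the kappa B motif in capitals.
TNFAIP3: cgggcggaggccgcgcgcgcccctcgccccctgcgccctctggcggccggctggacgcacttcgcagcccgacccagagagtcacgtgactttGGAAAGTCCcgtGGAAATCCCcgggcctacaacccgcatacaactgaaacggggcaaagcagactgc
NFKBIA: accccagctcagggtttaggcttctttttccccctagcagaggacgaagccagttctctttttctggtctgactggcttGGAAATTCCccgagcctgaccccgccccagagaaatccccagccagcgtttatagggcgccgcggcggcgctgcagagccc
CXCL8: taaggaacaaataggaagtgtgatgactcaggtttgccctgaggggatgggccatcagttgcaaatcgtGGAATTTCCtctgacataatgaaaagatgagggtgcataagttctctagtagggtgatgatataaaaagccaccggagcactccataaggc

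Of 50 tested interferon-stimulated genes, 20 were in the LPS class, 3 in the shared class and 5 in the mercuric chloride class. These classes held 3.04%, 1.37% and 19.2% of all tested genes. The shared count of the list was 10 when only vehicle series 1 served as control, and 6 when only 12 libraries were fitted. Its mercuric chloride count was 2 with library totals alone. Mercuric chloride lowered 12 of the 50, where it lowered 20.1% of all tested genes. OAS3, an antiviral oligoadenylate synthetase, was at 90.7, 96.6 and 77.3 CPM with LPS and 4.98, 5.45 and 4.95 CPM with mercuric chloride, against 8.58 to 19.5 CPM (median 13.6) with vehicle. All 3 mercuric chloride libraries lay below and all 3 LPS libraries above the vehicle range. OAS3 rose by 2.75 (log2, edgeR adjusted p = 2.00e-14) with LPS and changed by -1.35 (edgeR adjusted p = 0.00143) with mercuric chloride, and the direct difference was 4.10 ± 0.22 (log2 ± SE; edgeR adjusted p = 3.87e-21).

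MX1, an antiviral GTPase, averaged 34.1 ± 9.06 CPM with LPS and 3.84 ± 1.2 CPM with mercuric chloride, against 7.09 ± 4.2 CPM with vehicle. IFIH1, the RNA sensor MDA5, averaged 33.4 ± 3.39 CPM with LPS and 4.17 ± 1.4 CPM with mercuric chloride, against 8.58 ± 1.51 CPM with vehicle. IFIH1 fell with mercuric chloride, and no fall was called for MX1, whose log2 change with mercuric chloride was 0.09 against vehicle series 1 and -1.45 against series 2. OAS2, IFI44L, GBP4, GBP5, MX2, ISG15, STAT2, IRF9 and IFI16 were in the LPS class as well. IFI16 and IFI44L, with XAF1, EIF2AK2 and TRIM22, left it when single LPS or vehicle libraries were left out.

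Mercuric chloride raised 10 of the 50 (20%), near the 21.8% of all tested genes. Its class held 10% of the list, below the 19.2% of all tested genes. The members of that class were USP18, which restrains interferon receptor signaling, IFIT5, which binds viral RNA, the nuclease ISG20, IRF1 and WARS. USP18 averaged 4.28 ± 0.722 CPM with LPS and 11.6 ± 2.13 CPM with mercuric chloride, against 3.07 ± 1.004 CPM with vehicle. IRF1, ISG20 and WARS (the last now shared) left the mercuric chloride class with library totals alone, and IRF1 and WARS also with totals that leave out the 10 most abundant genes. The ISG20 difference was not called with library totals alone (adjusted p = 0.0583) or without LPS replicate 1 (-1.69, adjusted p = 0.0612). The interferon response motif, 2 TTTC units on 1 strand with 2 bases between them, was in 12 of 51 promoters of the LPS class (23.5%), 2 of 36 of the shared class (5.56%) and 5 of 38 of the mercuric chloride class (13.2%), against 3.65% of all promoters. Of the interferon list, 20 genes are in the LPS class and 3 in the shared class, so class and list membership cannot be told apart in these shares. The motif is shown in capitals in the same 160-base window before the start of OAS3, chr12:112938314-112938473, plus strand.
OAS3: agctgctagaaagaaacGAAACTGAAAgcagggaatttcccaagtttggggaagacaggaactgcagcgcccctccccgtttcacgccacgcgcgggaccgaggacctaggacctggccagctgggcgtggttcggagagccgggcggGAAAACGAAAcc

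Effector genes of the LPS class spanned adhesion, proteases and alarmins. VCAM1, an adhesion molecule that binds VLA-4, had 163 counts over the LPS libraries and none over the mercuric chloride libraries, so LPS was at least 25.1-fold higher at a floor of 3 counts over the group, and vehicle libraries held 6. MMP9, the gelatinase of migrating leukocytes, was at 87.8, 82.2 and 65.5 CPM with LPS and 2.49, 5.23 and 3.3 CPM with mercuric chloride, against 0.474 to 2.4 CPM (median 1.32) with vehicle. Its mercuric chloride libraries lay just above the vehicle range without a called rise (edgeR adjusted p = 0.0855), and the direct difference was 4.43 ± 0.44 (log2 ± SE; edgeR adjusted p = 5.79e-12). Without vehicle series 1 replicate 2 the smaller rise was called, and MMP9 then counted as shared. DESeq2 placed VCAM1 outside the LPS class.

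S100A8, a subunit of calprotectin, was at 326, 334 and 365 CPM with LPS and 96.7, 70.2 and 79.5 CPM with mercuric chloride, against 52.9 to 112 CPM (median 84.6) with vehicle. Mercuric chloride lay within the vehicle range and LPS far above it. S100A9, its partner, and S100A12 were in the LPS class too, and S100A12 averaged 16.5 ± 3.66 CPM with LPS and 1.38 ± 0.506 CPM with mercuric chloride, against 1.85 ± 0.703 CPM with vehicle. Against vehicle series 1 alone, S100A8 and S100A9 were called raised with mercuric chloride too. PTX3, a soluble pattern recognition protein, averaged 19.3 ± 1.77 CPM with LPS and 3.16 ± 0.919 CPM with mercuric chloride, against 2.55 ± 0.352 CPM with vehicle. PTGER4 (a prostaglandin E2 receptor), THBD (thrombomodulin) and TNFAIP8 rose with LPS and fell with mercuric chloride.

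Of 29 tested receptors and adaptors of LPS sensing and Toll-like receptor signaling, 5 rose with LPS (17.2%) and 4 with mercuric chloride (13.8%), which lowered 6. Over all tested genes 4.56% rose with LPS and 21.8% with mercuric chloride. The share lowered is near the 20.1% of all tested genes lowered by mercuric chloride. TLR4 itself averaged 5.83 ± 1.86 CPM with LPS and 3.67 ± 0.354 CPM with mercuric chloride, against 9.12 ± 2.26 CPM with vehicle, and fell with mercuric chloride (log2 -1.29, edgeR adjusted p = 0.00287). TLR2 averaged 52.9 ± 3.33 CPM with LPS and 12.7 ± 3.83 CPM with mercuric chloride, against 37.9 ± 7.01 CPM with vehicle, and also fell with mercuric chloride (edgeR adjusted p = 5.28e-11). TICAM1, the adaptor TRIF, was the only tested member raised with both, at 28.2 ± 2.05 CPM with LPS and 27.8 ± 6.4 CPM with mercuric chloride, against 15.5 ± 1.84 CPM with vehicle. Its rise with mercuric chloride was not called with library totals alone, and it left the shared class also with totals that leave out the 10 most abundant genes.

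IRAK3, a brake on Toll-like receptor signaling, NOD2, a sensor of bacterial cell wall, and TLR6 were in the LPS class, which IRAK3 and TLR6 left when single LPS or vehicle libraries were left out. TLR8 was too, at 3.66, 2.17 and 2.78 CPM with LPS and 0.383, 0.436 and 0 CPM with mercuric chloride, but its direct call was lost without mercuric chloride replicate 3 (2.79, adjusted p = 0.0547). TICAM2, the bridging adaptor TRAM, averaged 7.46 ± 2.64 CPM with LPS and 24.1 ± 1.51 CPM with mercuric chloride, against 5.61 ± 1.02 CPM with vehicle, and TREM1, an amplifier of inflammatory signals, was also in the mercuric chloride class, though not without vehicle series 1 replicate 3.

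Among 18 tested genes of the inflammasome and interleukin 1 processing, CASP1 was raised with both (not so without LPS replicate 3 or replicate 1 or 3 of vehicle series 2), NLRC4 and P2RX7 were in the LPS class (NLRC4 not without LPS replicate 1 or 2, vehicle series 1 replicate 1, or replicate 2 or 3 of vehicle series 2) and 4 genes were in the mercuric chloride class. CASP4, a caspase that binds cytosolic LPS, was at 52.2, 49.6 and 51.7 CPM with LPS and 121, 121 and 129 CPM with mercuric chloride, against 37.7 to 59.7 CPM (median 49.4) with vehicle. LPS libraries lay within the vehicle range and mercuric chloride above it. It differed by -1.27 ± 0.11 (log2 ± SE; edgeR adjusted p = 5.42e-14). CASP5, its close relative, IL1R2, the decoy receptor of interleukin 1, and IL18BP, which neutralizes interleukin 18, were the rest of that class. IL1R2 left it with DESeq2. The mercuric chloride class held 22.2% of this list, near the 19.2% of all tested genes. NLRP3, the sensor of the best known inflammasome, was at 66.1, 58.9 and 58.3 CPM with LPS and 25.1, 20.05 and 23.7 CPM with mercuric chloride, against 53.9 to 72.8 CPM (median 68.3) with vehicle, and fell with mercuric chloride (log2 -1.52, edgeR adjusted p = 9.25e-11).

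**Figure D4:**
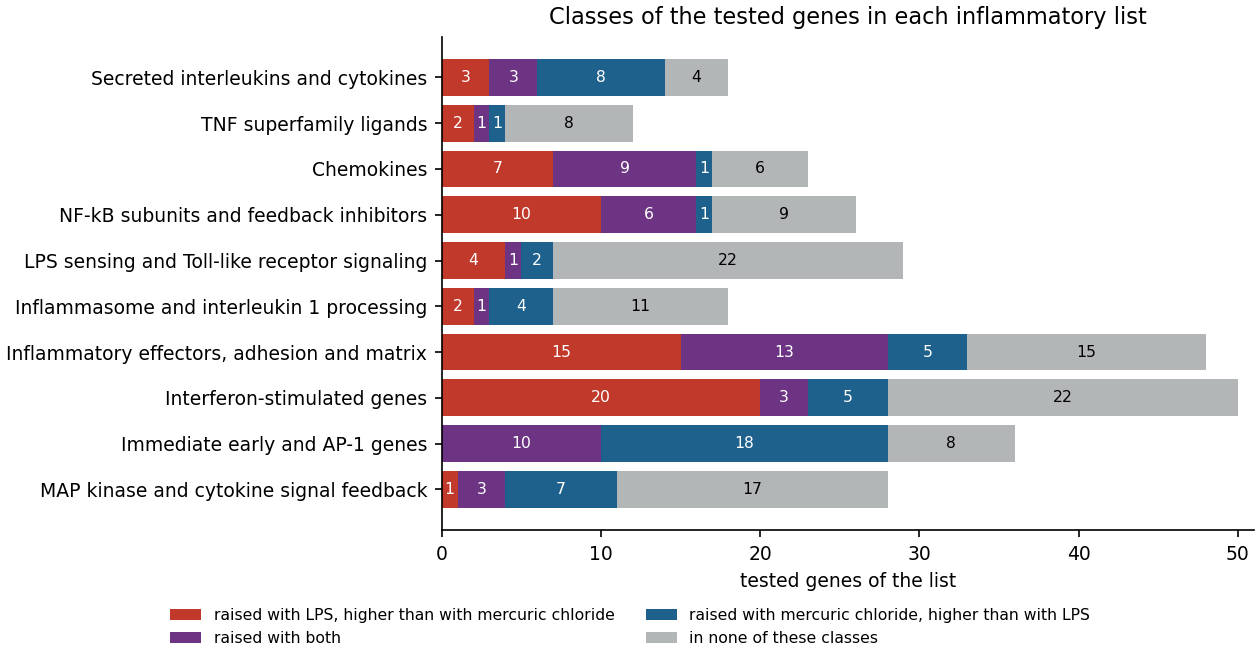
Number of tested genes of each of the 10 inflammatory lists in the LPS class (red), the shared class (purple), the mercuric chloride class (blue) and none of these (grey). The LPS class is widest among interferon-stimulated genes (20 of 50), the shared class takes 9 of 23 chemokines, and immediate early genes have 18 of 36 in the mercuric chloride class and none in the LPS class. Over all tested genes the LPS class took 3.04%, the shared class 1.37% and the mercuric chloride class 19.2%.

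Of 18 tested secreted cytokines, 8 were in the mercuric chloride class (INHBA, IL11, EREG, AREG, GDF15, CSF1, OSM and IL23A), 3 in the LPS class and 3 in the shared class. These classes held 19.2%, 3.04% and 1.37% of all tested genes. INHBA, EREG and IL11 passed the filter on low counts through the mercuric chloride libraries, so the mercuric chloride count is a description only. With a minimum of 5 CPM in 3 libraries that count was 5. IL11, a cytokine of the interleukin 6 family, had 2 counts over the LPS libraries, against 264 over the mercuric chloride libraries, a ratio of 0.00350 with a counting interval from 0.000422 to 0.0128, and 10 counts over the vehicle libraries. GDF15, a stress-induced member of the TGF-beta family, was at 0.891, 0.433 and 1.59 CPM with LPS and 40.6, 38.1 and 36.7 CPM with mercuric chloride, against 0.306 to 2.01 CPM (median 1.45) with vehicle. GDF15 with LPS overlapped with vehicle. OSM, another cytokine of the interleukin 6 family, averaged 1.15 ± 0.956 CPM with LPS and 9.69 ± 3.26 CPM with mercuric chloride, against 1.65 ± 0.795 CPM with vehicle.

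CSF1, the macrophage growth factor, was at 1.58, 1.82 and 0.795 CPM with LPS and 22.4, 17.7 and 14.2 CPM with mercuric chloride, against 0.355 to 1.78 CPM (median 0.739) with vehicle. IL23A, the p19 subunit of interleukin 23, was at 10.7, 4.42 and 4.87 CPM with LPS and 21.3, 19.2 and 22.7 CPM with mercuric chloride, against 2.55 to 5.26 CPM (median 3.73) with vehicle. LPS replicate 1 stood above the vehicle range and the other two LPS libraries within it. INHBA and EREG were near silent outside mercuric chloride. INHBA, the activin A subunit, had 2 counts over the LPS libraries, 75 over the mercuric chloride libraries and none with vehicle, so mercuric chloride was at least 99.2-fold higher than vehicle at a floor of 3 counts over the group. EREG, a ligand of the EGF receptor, had none over the LPS libraries, which is at least 33.2-fold lower than the 46 counts with mercuric chloride, and 4 with vehicle.

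Other genes of the mercuric chloride class included the chemokine CCL18 and the chemokine receptor CCR7. CCL18, a lymphocyte attractant, had 1 count over the LPS libraries and 139 over the mercuric chloride libraries, a ratio of 0.00332 with a counting interval from 8.36e-05 to 0.0188, and none with vehicle. Such near-silent genes rose with mercuric chloride widely, as in the share of 42.1% above. CCR7 averaged 0.657 ± 0.226 CPM with LPS and 8.37 ± 0.783 CPM with mercuric chloride, against 0.0377 ± 0.0585 CPM with vehicle, with all LPS libraries above the vehicle range although no rise was called (edgeR adjusted p = 0.202), and DESeq2 did not call its direct difference (adjusted p = 0.142).

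Immediate early genes are switched on within minutes by many stimuli and form or regulate AP-1. At 12 h, 18 of 36 tested genes were in the mercuric chloride class, 10 in the shared class and none in the LPS class. Over all tested genes the shares of these classes were 19.2%, 1.37% and 3.04%. ATF3, a stress-induced repressor of cytokine genes, was at 7.52, 5.54 and 5.67 CPM with LPS and 591, 543 and 561 CPM with mercuric chloride, against 2.4 to 6.37 CPM (median 3.13) with vehicle. Against vehicle series 1 alone its log2 change with LPS was 1.31, and on that reference it counted among the shared genes. The direct difference was -6.50 ± 0.27 (log2 ± SE; edgeR adjusted p = 4.60e-25).

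JUN, the core AP-1 subunit, was at 85.6, 76.8 and 75.3 CPM with LPS and 1453, 1307 and 1175 CPM with mercuric chloride, against 17.7 to 34.3 CPM (median 23.5) with vehicle, and was therefore raised with both but differed by -4.05 ± 0.11 (log2 ± SE; edgeR adjusted p = 1.14e-31). All mercuric chloride libraries stood above all LPS libraries. FOSB was at 0.891, 0.346 and 0.199 CPM with LPS and 129.5, 112 and 94.7 CPM with mercuric chloride, against 0 to 1.12 CPM (median 0.177) with vehicle. FOSB with LPS lay within the vehicle range. EGR1, a zinc finger factor of growth and stress signals, was at 13.6, 20.6 and 18 CPM with LPS and 605, 537 and 472 CPM with mercuric chloride, against 18.7 to 41.1 CPM (median 22.5) with vehicle. NR4A1, an orphan nuclear receptor, had 3 counts over the LPS libraries and 869 over the mercuric chloride libraries, a ratio of 0.00160 with a counting interval from 0.000328 to 0.00468.

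IER3, an early survival gene, was the 1 shared member of this list not called between the treatments, at 29.8, 25.3 and 26 CPM with LPS and 21.8, 20.9 and 20.2 CPM with mercuric chloride, against 0.47 to 1.38 CPM (median 0.706) with vehicle. The IER3 difference was called higher with LPS in a fit of the 6 libraries (log2 0.36, edgeR adjusted p = 0.0416) and with library totals alone (0.77, edgeR adjusted p = 0.0343). IER3 lies on 6 rows of the files that were summed, so its level is uncertain. BTG2, an antiproliferative gene, was the 1 shared member of the list that stood higher with LPS, at 61.9 ± 3.03 CPM with LPS and 26.5 ± 1.68 CPM with mercuric chloride, against 5.96 ± 1.31 CPM with vehicle.

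Of 28 genes of MAP kinase and cytokine feedback, 3 were in the shared class and 7 in the mercuric chloride class. The last share (25%) stands beside 19.2% of all tested genes. Against vehicle series 2 alone 8 were shared and 4 were in the mercuric chloride class, and a fit of 12 libraries gave 5 shared. DUSP6, which acts on ERK, was the 1 gene in the LPS class, at 123, 119 and 129 CPM with LPS and 28, 37.3 and 40.7 CPM with mercuric chloride, against 49.6 to 58.5 CPM (median 54.8) with vehicle, and it fell with mercuric chloride. DUSP1, which acts on p38 and JNK, was at 1.09, 0.606 and 0.696 CPM with LPS and 33.9, 28.1 and 28.5 CPM with mercuric chloride, against 0.204 to 0.704 CPM (median 0.562) with vehicle. DUSP2, DUSP4, DUSP5, DUSP10, DUSP16 and JAK3 were the other members of the mercuric chloride class. SOCS3, an inhibitor of cytokine receptor signaling, was raised with both, at 12.8 ± 1.28 CPM with LPS and 29 ± 1.38 CPM with mercuric chloride, against 2.16 ± 0.53 CPM with vehicle.

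The lists of the toxic stress response differed in how far they lay with mercuric chloride. All 11 tested metallothionein and zinc export genes, of 14 listed, were in the mercuric chloride class. Of these, MT1B had no count with LPS, 1 with vehicle and 23 with mercuric chloride. Such a member passes the filter on low counts through mercuric chloride, so this count is a description only. Of 33 proteasome subunits, 15 were in that class and the other 18 were raised in neither treatment. The proteasome count was 6 with library totals alone and 8 with totals that leave out the 10 most abundant genes. Of 31 heat shock proteins and cochaperones, 1 rose with LPS (HSPH1) and 29 rose with mercuric chloride. With only vehicle series 2 as control 8 genes of this list were raised with both, and with only 12 libraries fitted 3 were. HSPH1 was no longer in the shared class with untreated controls, with upper-quartile scaling, without vehicle series 1 replicate 2, or without replicate 1 or 3 of vehicle series 2. Of 36 NRF2 targets, 6 rose with LPS and 22 with mercuric chloride, and of 30 genes of the integrated stress response 2 rose with LPS and 18 with mercuric chloride. In neither class nor shared were 14 of the NRF2 targets and 12 genes of the integrated stress response, and 5 NRF2 targets were higher with LPS than with mercuric chloride. The background is the 4.56% of all tested genes raised with LPS and the 21.8% raised with mercuric chloride.

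HSPA6, an inducible HSP70 protein, was at 2.67, 2.08 and 2.19 CPM with LPS and 7108, 6178 and 5366 CPM with mercuric chloride, against 0.592 to 2.22 CPM (median 1.15) with vehicle, a direct difference of -11.39 ± 0.21 (log2 ± SE; edgeR adjusted p = 9.43e-39). It has the near-identical copy HSPA7, and the split between them is uncertain. CRYAB, a small heat shock protein, had no count over the LPS libraries and 2812 over the mercuric chloride libraries, at least 2028-fold lower with LPS at a floor of 3 counts over the group. MT2A, which binds zinc, copper and mercury, was at 200.03, 215 and 207 CPM with LPS and 10818, 10332 and 10654 CPM with mercuric chloride, against 102 to 194 CPM (median 125) with vehicle.

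Part of the oxidant response was shared. HMOX1, the heme-degrading enzyme, was at 15.9, 14.5 and 8.35 CPM with LPS and 1443, 1693 and 1592 CPM with mercuric chloride, against 1.87 to 6.8 CPM (median 3.01) with vehicle. FTH1, the iron-storing heavy chain of ferritin and also an NF-kB target, was at 2064, 2165 and 1994 CPM with LPS and 1547, 1902 and 2110.4 CPM with mercuric chloride, against 250.3 to 327 CPM (median 274) with vehicle, and was not called between the treatments (log2 difference 0.16 ± 0.11, ± SE; edgeR adjusted p = 0.185). For HMOX1 mercuric chloride stood far above LPS, and for FTH1 the treatments overlapped. The other NRF2 targets raised with both were FTL, SQSTM1 and NFE2L2, which encodes NRF2 itself. The count of shared NRF2 targets depended on the control series: it was 5 against both, 20 against vehicle series 1 alone and 15 when no control library was shared, where 5 were in the LPS class. ABCC3, a drug efflux pump, was the 1 member of this list in the LPS class, a call lost when no control library was shared (adjusted p = 0.142).

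The heat shock motif, the units GAA, TTC and GAA in this order with 2 bases between neighbours, was in 5 of 26 promoters of heat shock genes (19.2%), against 0.487% of all promoters. The metal response motif TGCGCNC was in 3 of the 5 promoters found for the 11 tested metallothionein and zinc export genes, and in 19.97% of all promoters. It was also in 9 of 26 promoters of heat shock genes (34.6%). Of the inflammatory classes, it was in 28.9% of promoters with mercuric chloride, 27.8% of the shared class and 11.8% with LPS. The heat shock and metal response motifs are in capitals in the 160 bases before the start of HSPA6, chr1:161524380-161524539, plus strand, and MT2A, chr16:56608424-56608583, plus strand.
HSPA6: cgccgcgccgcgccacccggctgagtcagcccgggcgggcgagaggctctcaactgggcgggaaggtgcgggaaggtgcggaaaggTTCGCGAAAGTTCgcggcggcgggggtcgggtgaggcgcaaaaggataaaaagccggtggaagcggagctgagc
MT2A: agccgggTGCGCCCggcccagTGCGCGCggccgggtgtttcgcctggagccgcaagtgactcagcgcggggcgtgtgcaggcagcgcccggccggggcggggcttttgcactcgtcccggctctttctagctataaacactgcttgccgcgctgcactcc

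Over all genes with at least 5 CPM in 1 treatment and no overlap between the treatments, the 6 highest with LPS were ALDH1A1, VCAM1, EBI3, IL4I1, IL1B and PLA2G7. IL4I1, a secreted amino acid oxidase of antigen-presenting cells, was at 480.1, 512 and 379.9 CPM with LPS and 6.32, 6.32 and 7.84 CPM with mercuric chloride, against 1.64 to 5.86 CPM (median 2.85) with vehicle, a direct difference of 6.06 ± 0.32 (log2 ± SE; edgeR adjusted p = 4.72e-21). PLA2G7, which degrades platelet-activating factor, averaged 19.3 ± 1.91 CPM with LPS and 0.329 ± 0.296 CPM with mercuric chloride, against 1.81 ± 0.6998 CPM with vehicle. ALDH1A1, a retinaldehyde dehydrogenase, was not raised with LPS (edgeR adjusted p = 0.12) and stood in this set through the mercuric chloride libraries, which held no count of it against 198 over the LPS libraries and 135 over the vehicle libraries.

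The 6 lowest were CRYAB, LINC00624, LINC00368, C17orf77, HSPA6 and GCM1. Apart from HSPA6 they had no count in any LPS library, with between 0 and 5 counts over the 6 vehicle libraries. GCM1, a transcription factor known from placenta, was at 36, 27.7 and 21.9 CPM with mercuric chloride. DESeq2 did not call the difference of LINC00624 (adjusted p = 0.215) or C17orf77 (adjusted p = 0.244). When no control library was shared, the differences of CRYAB, LINC00624 and LINC00368 were not called.

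The vehicle series also bear on which treatment a gene is assigned to. With LPS set against series 1 and mercuric chloride against series 2, so that no control library was shared, 3246 genes were higher and 3120 lower with LPS over all tested genes. All 50 shared inflammatory genes stayed in that class and 19 joined it, among them TNFAIP3, MMP9, C3, TRAF1 and ATF3. Of the LPS class 50 of 64 remained, IL1B, EBI3, CXCL1, NFKBIA and OAS3 included, and of the mercuric chloride class 39 of 52. Of the named genes not called between the treatments in this setting, several kept about the same fitted log2 difference, namely CXCL10 (5.36), CCL19 (4.41), CCL18 (-7.73), INHBA (-6.09) and IL32 (2.76). It was nearer 0 than in the direct comparison for VCAM1 (4.68), CCR7 (-0.88), CRYAB (-11.87), USP18 (-0.69) and IFIT5 (-1.38), and for the genes at or near 0 counts these fitted values are no bounds.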

How the data were processed

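The data are 3′ Quant-Seq libraries (Lexogen) from 500 ng of total RNA. Per the labels, cells were exposed for 12 h. Per the submitters' processing notes, Bowtie2 and bedtools were used with hg19 (GRCh37), while the sources used here do not name the annotation or strand setting of the counting. The authors deposited raw counts per gene row, 1 table per library with 25737 rows. Rows with the same symbol were summed (286 symbols on 1561 rows, 1.36% of counts), leaving 24462 symbols.

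All 48 libraries in 16 groups entered one edgeR 4.0.16 quasi-likelihood fit (R 4.3.3) with TMM scaling and filterByExpr, which kept 15642 genes, with 32 residual degrees of freedom. LPS was contrasted directly with mercuric chloride. Each treatment was also set against both vehicle series, keeping the larger p where both signs matched and 1 otherwise. P-values were Benjamini-Hochberg adjusted over all genes at 0.05. Standard errors are the log2 change divided by the square root of F. Floors of 3 counts and ratio intervals (95%) cover counting error only. Within the LPS, mercuric chloride and vehicle groups no 2 replicates were identical or within sampling noise of each other. In simulated counts, LPS levels were set to the mercuric chloride levels. Only 67, 67 and 66 genes were then changed by 1.5-, 2- and 4-fold, in alternating directions. With 16061 genes tested, 133 calls were made and 6 were false. Changes of 1.5-fold were found in 34.3% of cases, of 2-fold in 71.6% and of 4-fold in 84.8%. The simulation held no skew between the treatments, so it cannot measure errors that come from scaling skewed libraries.

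The members and lists were chosen with earlier results of these data known. Named genes followed a size rule: the 12 shared genes with the largest smaller rise, up to 4 of the LPS class and 3 of the mercuric chloride class per list, up to 3 lower and 2 higher per stress list, and the 6 largest differences in each direction over all genes with a mean of at least 5 CPM in 1 group and no overlap. Other members named with values describe their list and were chosen after their values were seen. Alternatives covered scaling, filter, tool (DESeq2 1.42.0, limma-voom 3.58.1), fit, controls, symbol handling and left-out libraries. Some genes are not reported here.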

Additional observations from a re-analysis of the deposited data

How the results depend on the processing

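With library totals alone, 7187 genes were higher and 2926 lower with LPS than with mercuric chloride, 3399 were at least 2-fold higher, and mercuric chloride raised 2204 and lowered 6003. With totals that leave out the 10 most abundant genes, 2879 were at least 2-fold higher and mercuric chloride lowered 5235. The genes at least 2-fold lower with LPS numbered 1628 with a minimum of 5 CPM in 3 libraries, and 1606 among genes of at least 1 CPM in vehicle, a limit chosen after seeing the data. LPS raised 1269 and lowered 1107 genes against vehicle series 1 alone, which is also its reference when no control is shared, and raised 1824 and lowered 1948 against series 2 alone. The CCL3 difference turned positive with library totals (0.37), totals without the 10 most abundant genes (0.27), no filter on low counts (0.016), and with single libraries left out (-0.17 without LPS replicate 1 to 0.12 without LPS replicate 3, 0.018 without mercuric chloride replicate 1), and was never called. MTHFD2 turned to -0.046 when no control was shared. The cause of these shifts was not tested.

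Leaving out single libraries gave 4085 to 4439 genes higher and 4260 to 4813 lower, 1567 to 1679 and 2515 to 2856 at least 2-fold, 595 to 714 raised and 299 to 407 lowered with LPS, and 3115 to 3597 raised and 2855 to 3206 lowered with mercuric chloride. The inflammatory classes then held 57 to 64 genes (LPS), 45 to 51 (shared) and 51 to 61 (mercuric chloride). Replicate numbers do not pair the libraries: correlations of deviations of same-numbered libraries were -0.01, 0.00 and 0.02. With the replicate block 4399 genes were higher and 4596 lower, and in a fit of the 6 libraries 4308 and 4495 with the block against 4281 and 4475 without it. For the 89 named genes, 2232 of the alternative values kept direction and call, 42 lost the call, 16 gained it and 6 changed sign. Mercuric chloride libraries are the shallowest, which limits genes of few counts most.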
